A study of Mus musculus with 16 samples.

Results

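The 4 genes described here, measured in mouse liver, encode ligands of natural killer (NK) cell receptors: Raet1d and Raet1e, which encode ligands of the activating receptor NKG2D, and Clec2h and Clec2d, C-type lectin-like genes whose family supplies ligands of the NKR-P1 receptors. They were picked by symbol, 4 of the 40840 genes of the deposited count table, and all 4 were among the 14484 genes with enough reads to be tested, Raet1e and Clec2h only through their WT libraries. The choice rested on measured values: Raet1d, Raet1e and Clec2h had been seen to be far lower in livers lacking both cryptochromes. The comparison of genotypes is therefore given for the members as a description, with no test, whereas dosing time was not used to choose them and is tested.

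The study sequenced poly(A) RNA from the liver of male C57BL/6J mice that were either wild type (WT) or lacked Cry1 and Cry2 (Cry1-/- Cry2-/-, called CryDKO), genes for the cryptochromes, repressors of the circadian clock. All animals were 12 to 16 weeks old, lived in constant darkness from 3 days before dosing, and received oxaliplatin, a platinum drug that damages DNA, at 12 mg/kg intraperitoneally at circadian time (CT) 8 or CT16. Sample labels give dosing on 3 consecutive days, while the design text mentions a single dose as well. Every group had oxaliplatin, and untreated livers are not analysed here, so a response to the drug itself cannot be read from these groups. The knockout is a whole-body deletion, and the time between dosing and collection is not given in the sources used here. There were 4 groups of 4 libraries: WT at CT8 (libraries 1 to 4), WT at CT16 (libraries 5 to 8), CryDKO at CT8 (libraries 9, 10, 15 and 16) and CryDKO at CT16 (libraries 11 to 14). The numbers are running numbers of the columns. Nothing in the labels states that each library is a separate animal, and p-values therefore measure the spread between these libraries.

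The libraries held 18083916 to 29934138 reads assigned to genes. Levels are in CPM, read counts divided by the depth of the library after edgeR's TMM scaling, which adjusts depth for differences in RNA composition. Library 8, labelled WT at CT16, had a scaling factor of 1.20, within the 1.13 to 1.24 of the WT CT8 libraries and above the 0.921 to 0.955 of the other WT CT16 libraries, and the results of dosing time in WT are given with and without it. Cry2 was lower in the CryDKO libraries (23.1 to 33.3 CPM) than in WT (39.9 to 58.9 CPM), but Cry1 was higher there (20.5 to 29.0 CPM against 5.14 to 15.9 CPM). Reads over a whole gene need not fall in its deleted part, so these levels do not check the labels, and CryDKO below means the libraries labelled so. Hepatocyte markers (Alb, Ttr, Apoa1, Tat, Hnf4a and Serpina1c) summed to 45000 to 141000 CPM over the 16 libraries and each was detected in every group. In bulk liver, fewer cells of a type and less RNA per cell cannot be told apart.

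NKG2D, encoded by Klrk1, is an activating receptor on NK cells and some T cells that signals through the adaptors DAP10 (Hcst) and DAP12 (Tyrobp). Its mouse ligands, the RAE-1, H60 and MULT1 proteins, resemble MHC class I molecules, are low on most healthy adult cells and are known to be raised by DNA damage signalling and by E2F factors in proliferating cells. Raet1d and Raet1e encode the RAE-1 forms of the C57BL/6 strain. Clec2d encodes Clr-b (also called Ocil), a widely expressed surface lectin that engages the inhibitory receptor NKR-P1B on NK cells and marks a cell as healthy. Clec2h encodes Clr-f, a relative best known from gut epithelium and kidney.

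Raet1d and Raet1e lie on chromosome 10, Clec2h and Clec2d on chromosome 6 within the NK gene complex. Of the deleted genes, Cry1 also lies on chromosome 10, and Cry2 on chromosome 2. The distance between Cry1 and the Raet1 genes was not measured. Whether other DNA of chromosome 10 differs between the WT and CryDKO animals was not tested. The regions just before their starts are shown because Raet1d and the second listed start of Raet1e are near copies there. Clec2h and its close copy Clec2e, by contrast, differed widely in reads. The Raet1e line below is that of its second listed start. Sequences are the 250 bases upstream of the start in RefSeq's GRCm38.p6 table. The count files name GRCm39, so these coordinates do not apply to them. Capitals in the following lines mark bases at which the members of a pair differ.
Raet1d, chr10:22361644-22361893 (plus strand): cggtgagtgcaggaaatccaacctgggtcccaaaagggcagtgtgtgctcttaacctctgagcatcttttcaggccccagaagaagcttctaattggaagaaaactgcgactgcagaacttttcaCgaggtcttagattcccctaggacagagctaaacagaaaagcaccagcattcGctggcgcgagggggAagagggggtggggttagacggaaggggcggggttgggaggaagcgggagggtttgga
Raet1e, chr10:22173247-22173496 (plus strand): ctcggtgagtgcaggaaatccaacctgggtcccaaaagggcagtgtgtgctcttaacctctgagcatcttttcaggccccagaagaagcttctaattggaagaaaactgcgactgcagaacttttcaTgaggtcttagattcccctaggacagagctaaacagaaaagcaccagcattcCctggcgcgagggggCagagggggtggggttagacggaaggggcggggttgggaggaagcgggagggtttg
Clec2h, chr6:128662135-128662384 (plus strand): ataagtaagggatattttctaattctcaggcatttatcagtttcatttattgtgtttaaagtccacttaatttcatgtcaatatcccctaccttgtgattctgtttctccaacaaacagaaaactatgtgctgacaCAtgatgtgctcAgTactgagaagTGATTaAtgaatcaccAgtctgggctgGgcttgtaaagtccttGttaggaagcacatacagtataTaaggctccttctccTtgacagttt
Clec2e, chr6:129100904-129101153 (minus strand): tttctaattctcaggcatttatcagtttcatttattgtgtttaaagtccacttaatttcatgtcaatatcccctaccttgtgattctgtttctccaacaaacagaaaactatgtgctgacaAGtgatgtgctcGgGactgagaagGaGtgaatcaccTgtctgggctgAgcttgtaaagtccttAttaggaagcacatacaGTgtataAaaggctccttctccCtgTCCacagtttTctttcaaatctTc
In the windows of 300 bases that also take in the first bases of the transcript, Raet1d and the second listed start of Raet1e shared 295 of 298 aligned bases, with 3 mismatches and no gap. Clec2h and Clec2e shared 253 of 291 aligned columns, with 14 mismatches and 24 gap columns. Clec2e had 6 reads in all 16 libraries together, against 1311 for Clec2h. The Clec2d window aligned with that of Clec2g over 169 of 298 columns (56.7%), and Clec2g had 4 reads in all.

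A set of 9 motifs was searched on both strands of these windows. AGGTCA is only a part of the element recognised by the ROR and REV-ERB factors of the clock, and the rest was not searched for. It was found 3 times before Clec2d, at positions -238, -227 and -114 from the start. A CCAAT box (CCAAT) was found there at -95. The AGGTCA and CCAAT matches are the capitals in the next line.
Clec2d, chr6:129180365-129180614 (plus strand): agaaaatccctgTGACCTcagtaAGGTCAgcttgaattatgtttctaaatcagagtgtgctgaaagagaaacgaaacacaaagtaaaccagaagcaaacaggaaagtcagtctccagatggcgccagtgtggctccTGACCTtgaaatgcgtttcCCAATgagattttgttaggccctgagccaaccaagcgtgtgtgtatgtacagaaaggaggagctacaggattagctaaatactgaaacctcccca
Of 32851 windows of the same length, 16.3% held AGGTCA at least once and 37.4% held CCAAT. The share of windows with 3 matches was not counted. The Raet1d window held 1 CCAAT on the minus strand at -158 and 1 GC box (GGGCGG, in 35.7% of all windows) at -33. The second Raet1e window held the same pair at -156 and -31, and its other listed start had 3 GC boxes. None of the E-box CACGTG (7.15% of all windows), the D-box TTATGTAA (0.938%), the E2F elements TTTCCCGC (1.07%) and TTTGGCGC (0.514%) and the STAT5 element TTCNNNGAA (8.3%) occurred in a member's window. The TATA box TATAAA (13.6% of all windows) occurred before Clec2e at -46 and not before a member. The Clec2h window held none of the 9 motifs. A match describes letters only and was not tested for binding.

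Raet1d, the more abundant of the NKG2D ligands, had 16.3, 14.2, 12.8 and 9.12 CPM in WT libraries 1 to 4 (CT8) and 29.7, 10.7, 17.8 and 13.8 CPM in libraries 5 to 8 (CT16). In CryDKO it had 0.654, 0.314, 0.83 and 1.04 CPM in libraries 9, 10, 15 and 16 (CT8) and 0.411, 0.619, 0.4 and 0.768 CPM in libraries 11 to 14 (CT16), which rest on 7 to 21 reads each. Every CryDKO library lay below every WT library, the lowest WT value being 8.76 times the highest CryDKO value. The group means were 13.1 ± 3.05 and 18 ± 8.3 CPM in WT at CT8 and CT16 and 0.71 ± 0.307 and 0.55 ± 0.177 CPM in CryDKO (SD, n = 4 each), and the dosing times overlapped within each genotype. The mean was 18.5-fold higher in WT at CT8 and 32.7-fold at CT16, and the fitted log2 changes of CryDKO against WT were -4.21 ± 0.35 (SE) and -5.00 ± 0.37.

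Raet1e followed the same order at a lower level, with 3.38, 3.81, 4.24 and 3.75 CPM in WT at CT8 and 8.00, 2.55, 4.08 and 3.45 CPM in WT at CT16. In CryDKO it had 0.567, 0, 0.221 and 0.248 CPM at CT8 (libraries 9, 10, 15 and 16) and 0.176, 0.0885, 0.343 and 0.154 CPM at CT16. Library 10 had no read, which allows up to 0.135 CPM at its depth (3 reads), and the other CryDKO libraries had 2 to 13 reads. The genotypes did not overlap, with the lowest WT library 4.51 times the highest CryDKO library. The WT means of 3.79 ± 0.351 (CT8) and 4.52 ± 2.40 CPM (CT16) were 14.7-fold and 23.8-fold those of CryDKO (0.259 ± 0.233 and 0.19 ± 0.108 CPM; SD, n = 4 each). Fitted log2 changes were -3.83 ± 0.52 (SE) at CT8 and -4.57 ± 0.55 at CT16. Library 5, WT at CT16, held the highest level of both Raet1 genes among the 16 libraries.

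Clec2h was low in CryDKO as well, but not in each library. WT had 2.35, 3.87, 3.90 and 5.10 CPM at CT8 and 7.63, 10.8, 4.56 and 6.03 CPM at CT16. CryDKO had 0.305, 2.34, 0.277 and 0.149 CPM at CT8 (libraries 9, 10, 15 and 16) and 0.47, 0.0442, 0.4 and 1.38 CPM at CT16, from 1 to 52 reads. Library 10 stood at 2.34 CPM, level with WT library 1, so the near loss of Clec2h did not extend to it, and library 14 was the next highest. Group means were 3.81 ± 1.13 and 7.26 ± 2.69 CPM in WT and 0.767 ± 1.05 and 0.574 ± 0.57 CPM in CryDKO (SD, n = 4 each). Fitted log2 changes were -2.28 ± 0.72 (SE) at CT8 and -3.66 ± 0.77 at CT16, and the CT8 value was -3.92 without library 10.

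Clec2d was the abundant member and the one that stayed well expressed in CryDKO. WT had 150, 223, 171 and 226 CPM at CT8 and 70.0, 95.4, 102 and 155 CPM at CT16. CryDKO had 38.0, 67.3, 69.0 and 58.4 CPM at CT8 and 89.5, 65.7, 53.3 and 54.9 CPM at CT16. At CT8 all 4 CryDKO libraries were below all WT libraries, while at CT16 library 11 (CryDKO, 89.5 CPM) exceeded library 5 (WT, 70.0 CPM). Fitted log2 changes were -1.73 ± 0.24 (SE) at CT8 and -0.68 ± 0.24 at CT16, the latter -0.45 without library 8. The order of the means was WT at CT8 (193 ± 38.0 CPM), WT at CT16 (106 ± 35.8), CryDKO at CT16 (65.8 ± 16.7) and CryDKO at CT8 (58.2 ± 14.2; SD, n = 4 each), and each neighbouring pair in that order overlapped.

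**Figure D1:**
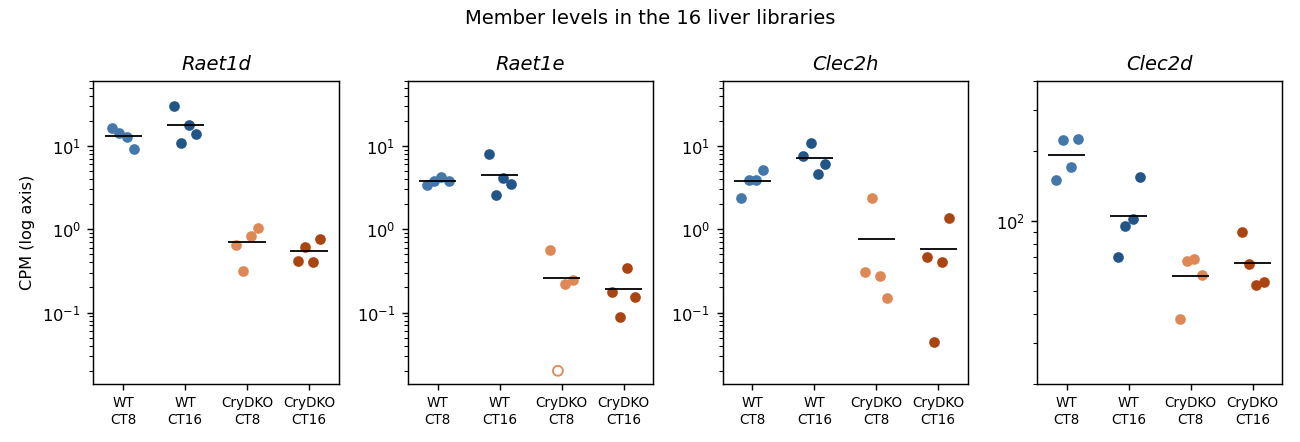
Level of each gene in CPM (log axis; Clec2d on its own scale) in the 16 libraries by genotype and dosing time, with points for libraries and lines for the mean of 4; the open point is the library with 0 reads, drawn at the foot of the panel. Raet1d and Raet1e separate the genotypes fully, Clec2h of library 10 (2.34 CPM) reaches the lowest WT library, and Clec2d overlaps at CT16.

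As the background for these genotype differences, 39% of all tested genes passed an adjusted p of 0.05 between CryDKO and WT at CT8 (edgeR quasi-likelihood test, Benjamini-Hochberg adjustment), 20.3% being lower in CryDKO. At CT16 the shares were 18.2% and 9.15%. With library size in place of TMM, the median of all genes moved from -0.02 to -0.36 at CT8 and from -0.01 to -0.16 at CT16. The split of calls then went from 2706 higher and 2943 lower to 961 and 5127 at CT8, and from 1303 and 1326 to 605 and 1883 at CT16. Relative to the median of all genes the members hardly moved, Raet1d standing at -4.20 with TMM and -4.21 with library size at CT8. Since the genotype contrast chose the members, nothing is read from where they stand in it.

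Levels between genes were compared per kilobase of exon (GENCODE M21 lengths, CPM per kb). In WT at CT8 Clec2d had 159 ± 31.3, Raet1d 9.09 ± 2.10, Raet1e 1.76 ± 0.163 and Clec2h 1.40 ± 0.416 CPM per kb (SD, n = 4). Raet1e and Clec2h overlapped there and at CT16 in WT, where they had 2.09 ± 1.11 and 2.68 ± 0.988 CPM per kb. In CryDKO Clec2d remained at 48.0 ± 11.7 and 54.3 ± 13.8 CPM per kb at CT8 and CT16, while the mean of each other member was under 0.5 CPM per kb (0.0882 to 0.492).

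Dosing time was then compared within genotype. In WT, 2.53% of tested genes differed between CT16 and CT8 (367 of 14484, 179 higher and 188 lower with TMM, 18 and 354 with library size, where the median moved from -0.04 to -0.29). That count was 0 to 12 without library 2, 4, 5, 6 or 7, 80 to 174 without 1, 3 or 13, 633 to 697 without 9 or 14, and 3580 without library 8. None of the 4 members passed by edgeR, 1 of them (Clec2d) having an unadjusted p under 0.05. Clec2d came nearest, with a log2 change of -0.87 ± 0.24 (SE; edgeR adjusted p = 0.0521), and 3 of the 4 CT16 libraries lay below every CT8 library. The exception was library 8 at 155 CPM, and without it the change was -1.07 (edgeR adjusted p = 0.00473). The Clec2d p fell under 0.05 in 9 of 22 alternatives, such as DESeq2 (adjusted p = 0.0147) and limma voom (0.0417), and ranged from 0.00473 to 0.169.

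Raet1d changed by 0.45 ± 0.28 (edgeR adjusted p = 0.303), Raet1e by 0.25 ± 0.41 (0.717) and Clec2h by 0.93 ± 0.64 (0.364) on the log2 scale in WT at CT16 against CT8. The Raet1e value was -0.17 without library 5 and -0.02 with library size. For Clec2h, only library 7 (4.56 CPM) among the CT16 libraries lay below the highest CT8 library (5.10 CPM).

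In CryDKO 0% of tested genes passed between the dosing times by edgeR; 938 had an unadjusted p under 0.05, DESeq2 called 14 and limma voom 0. The members' log2 changes were -0.33 ± 0.43 for Raet1d, -0.49 ± 0.68 for Raet1e, -0.46 ± 0.83 for Clec2h and 0.18 ± 0.24 for Clec2d (SE). The edgeR adjusted p was 0.906 for Raet1d and 0.908 for Clec2d, and neither had an unadjusted p under 0.05. Raet1e and Clec2h had too few reads in CryDKO to pass the filter on these libraries alone (0 to 13 and 1 to 52 reads), so their values are given with no test. Clec2h turned to 1.20 without library 10, Raet1e to 0.29 without library 9, and Clec2d to 0 without library 11.

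Whether the effect of dosing time differed between genotypes was tested as an interaction, which 0.0414% of tested genes passed (6 genes, 568 without library 8, 1 to 3 without library 1, 6, 9 or 10, and 0 without library 2, 4, 5, 12 or 13). The genotype contrasts that chose the members enter it, so the members' values are a description, with no test. They were 1.05 ± 0.33 (SE) on the log2 scale for Clec2d, -0.78 ± 0.51 for Raet1d, -0.74 ± 0.80 for Raet1e and -1.39 ± 1.04 for Clec2h. Without library 8 the Clec2d value was 1.25, and without library 10 the Clec2h value was 0.26.

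**Figure D2:**
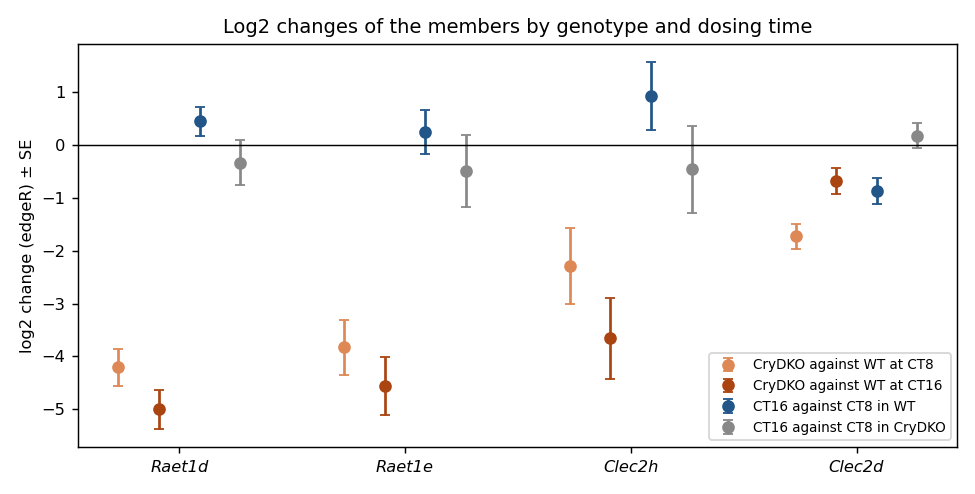
Log2 change of each gene (edgeR, y axis, with SE bars) between genotypes at CT8 and CT16 and between dosing times within each genotype. Raet1d and Raet1e sit between -5.00 and -3.83 in the genotype comparisons, and each dosing time value lies within 1 of zero.

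The division of reads between the Raet1 pair was measured in each library. Raet1d took 70.8% to 82.9% of Raet1d and Raet1e reads in the WT libraries, and 79.0% over all WT reads (3349 of 4240, exact Clopper-Pearson 95% interval 77.7% to 80.2%, counting error only). Over the CryDKO libraries it took 73.7% (101 of 137 reads, 65.5% to 80.9%), with single libraries from 53.6% to 100%. Both genes were chosen for their low level in CryDKO, so these shares are a description. The genes are near copies: 23.6% of the 150-base windows of Raet1d exons (305 of 1290) also occur in Raet1e, and 16.4% of those of Raet1e (305 of 1863) in Raet1d, so reads from these stretches may have been dropped or split. No such window of Clec2h or Clec2d occurs in another gene. The lncRNA Gm26740 overlaps Raet1e and had 78 WT and 36 CryDKO reads. Strand use in counting is not given in the sources used here.

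**Figure D3:**
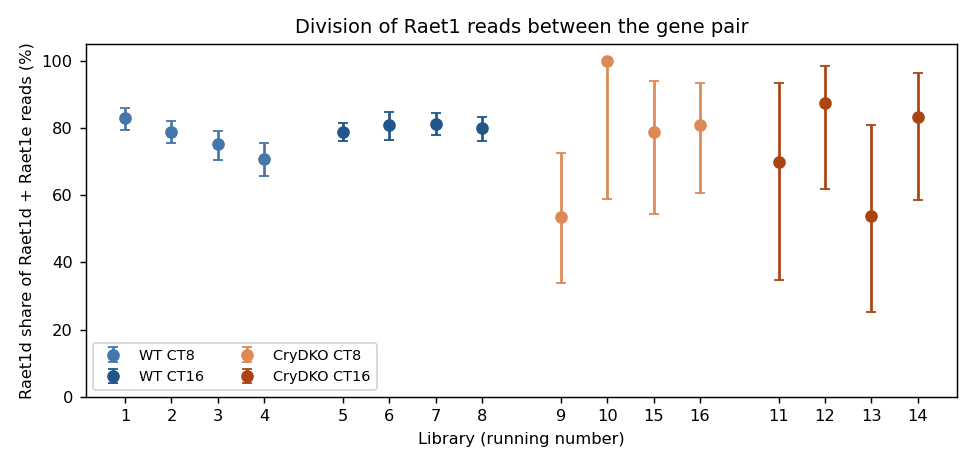
Share of Raet1d in the sum of Raet1d and Raet1e reads (percent) by library, with exact 95% intervals for counting error. WT libraries lie between 70.8% and 82.9%, and the CryDKO intervals are wide because 7 to 28 reads stand behind each.

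Across libraries, log2 CPM of Raet1d and Raet1e correlated at r = 0.96 over all 16 libraries, 0.80 over the 8 WT libraries and 0.42 over the 8 CryDKO libraries (Pearson; Spearman 0.85, 0.48 and 0.33). The value over 16 libraries carries the genotype difference, and all correlations share library depth and scaling. Within WT, Raet1d and Clec2h had r = -0.02, Raet1d and Clec2d -0.67, and Clec2h and Clec2d -0.55. These are descriptions, with no test.

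The genes whose log2 CPM followed each member most closely over the 16 libraries were ranked among tested genes of at least 1 CPM on average. This ranking carries the genotype difference, so that genes also lower in CryDKO lead it, and it is a description with no test. Ttc39b was first for Raet1d (r = 0.976) and for Raet1e (0.964), with 44.3 ± 4.41 and 45.1 ± 10.3 CPM in WT at CT8 and CT16 and 15.9 ± 2.37 and 16.7 ± 2.15 CPM in CryDKO (SD, n = 4). Next came, for Raet1d, Mterf2, Kdm7a, Nfib and Hectd2os (r down to 0.951), and, among others, for Raet1e Celf2, Mterf2 and Trim12c (down to 0.94). For Clec2h these were Ncam2 (0.938), Gas2, Upp2, Hnmt and Ube3a (down to 0.914), and for Clec2d Zfp974 (0.96), LOC115486907, BC024386, Pwwp2a and Pts (down to 0.941). Nfib, a transcription factor of the nuclear factor I family, had 145 ± 7.41 and 133 ± 11.9 CPM in WT and 70.2 ± 6.86 and 69.9 ± 4.04 CPM in CryDKO. Upp2, a uridine phosphorylase of liver, had 521 ± 61.1 and 716 ± 169 CPM in WT and 181 ± 95.6 and 172 ± 96.1 CPM in CryDKO.

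Over the 8 WT libraries alone other genes led: Mex3c, Slc17a4 and Clcn7 for Raet1d (r = 0.965 to 0.956), Dtx3l, Bak1 and Ghr for Raet1e (0.965 to 0.951), and Fbxo4, Rnf113a1 and Emp2 for Clec2h (0.977 to 0.959). For Clec2d they were Zcchc7 (0.995), LOC118568353 (0.992) and Pcgf2 (0.991). LOC118568353 had 6.48 ± 1.79 CPM in WT at CT8, 2.29 ± 1.53 at CT16, and 0.792 ± 0.438 and 0.61 ± 0.301 in CryDKO. By Spearman's rho, 0 to 2 of the genes of each list stayed among the leading ones. With so many genes ranked over 8 libraries, high values of r can arise by chance, and none was tested.

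Genes next to the members in RefSeq's gene order were examined, taking up to 3 tested genes on each side. Among 13 distinct neighbours, 4 were lower in CryDKO at CT8 and 9 did not pass, and at CT16 2 were lower and 11 did not pass (edgeR quasi-likelihood test). Of all tested genes 20.3% were lower at CT8 and 9.15% at CT16, so that with 13 neighbours these counts are given as a description. All that passed lie on chromosome 6 around Clec2h and Clec2d. Gm44478, the tested gene before Clec2h, had a log2 change of -3.68 ± 0.69 (SE; edgeR adjusted p = 0.000546) at CT8 and -2.59 ± 0.60 (0.00618) at CT16. Its mean level was 0.839 and 0.973 CPM in WT and 0.0634 and 0.156 CPM in CryDKO at CT8 and CT16. Gm34755, between the Clec2 genes, changed by -1.58 ± 0.47 at CT8 (adjusted p = 0.0115, and 0.0503 without library 4). After Clec2d, Gm38906 changed by -2.37 ± 0.54 (0.00205) and 2310001H17Rik by -1.19 ± 0.23 (0.000702) at CT8. A2ml1 passed at CT16 (-1.15 ± 0.31, edgeR adjusted p = 0.0173, and 0.0507 without library 11). Gm34755 averaged 0.724 and 0.542 CPM in WT and 0.238 and 0.212 in CryDKO, and Gm38906 0.827 and 0.509 against 0.158 and 0.3. These genes and Gm44478 entered the tested set only through their WT libraries. Their changes and adjusted p-values are therefore descriptions.

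Around the Raet1 pair none of the 6 neighbours passed at either time by edgeR, 2 having an unadjusted p under 0.05 at CT8 and 1 at CT16. DESeq2 called 2 and 1, and limma voom 1 and 0. Tbpl1, the next tested gene, changed by -0.17 ± 0.16 (edgeR adjusted p = 0.426) at CT8 and 0.03 ± 0.16 (0.913) at CT16. Those before the pair were Sgk1, Gm34267 and E030030I06Rik, the last with -0.56 ± 0.23 (0.0592) and -0.62 ± 0.24 (0.0696), and those after it included Tcf21 and Eya4. Whether the 2 loci differ in this was not tested.

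**Figure D4:**
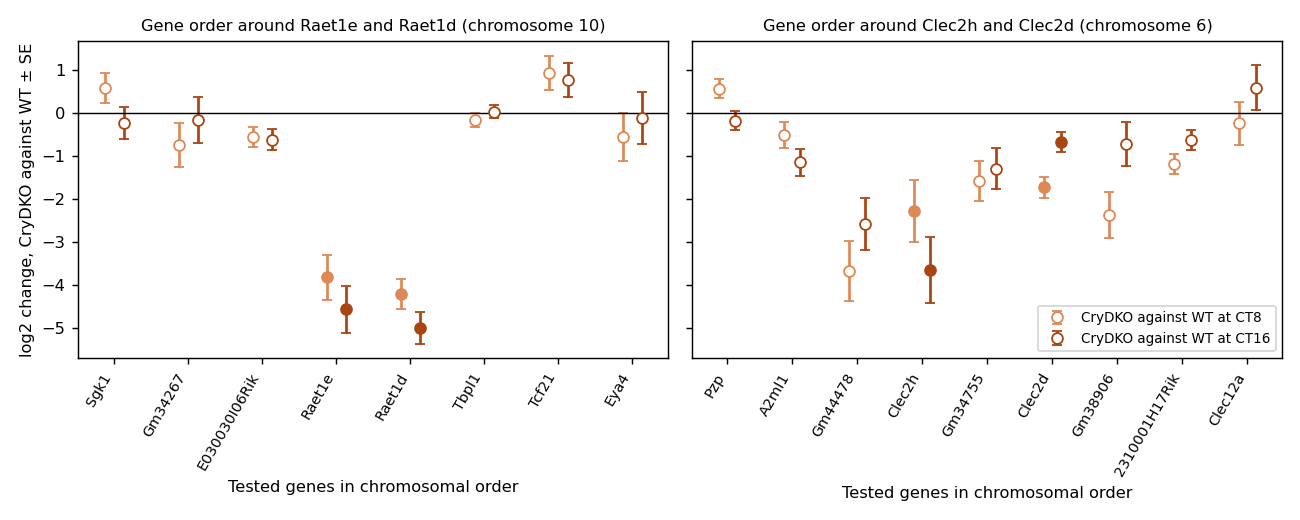
Log2 change of CryDKO against WT (y axis, SE bars) for tested genes in chromosomal order around Raet1e and Raet1d (left) and Clec2h and Clec2d (right); filled points are the members and open points their neighbours. The neighbours of the Raet1 pair lie between -0.75 and 0.93, while Gm44478 beside Clec2h lies at -3.68 and -2.59. Gm44478 entered the tested set only through its WT libraries.

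The remaining ligand genes were near zero. Of 7 other NKG2D ligand genes, H60b, H60c and Ulbp1 were in the table, with 13, 0 and 19 reads over all 16 libraries, and none was tested. Of 7 other Clec2 genes 6 were in the table and none was tested. Clec2i, which encodes Clr-g, had the most with 42 reads (26 WT and 16 CryDKO), Clec2l had 2, and Clec2f and Clec2m had 0. The same lists hold Raet1a, Raet1b, Raet1c, H60a and Clec2j, for which no row was used here.

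The receptors of these ligands were scarcely detected. Klrk1, the NKG2D gene, had 92 reads over the 16 libraries (58 WT and 34 CryDKO) and Hcst 76 (30 and 46), too few to test. Among 5 NKR-P1 genes none was tested, and Klrb1c, which encodes NK1.1, had the most with 82 reads, while Klrb1b, the receptor of Clec2d, had 14. Of the 4 tested genes of the NKG2D signalling list, 1 was higher in CryDKO and 3 did not pass at each time. Of all 14484 tested genes, 2706 were higher and 2943 lower in CryDKO at CT8, and 1303 and 1326 at CT16. The counts of this and the following lists are descriptions to be read beside these shares. Tyrobp, the DAP12 adaptor that macrophages also use, rose at CT16 by 1.14 ± 0.34 (SE; edgeR adjusted p = 0.0242) and had 0.33 ± 0.33 (0.446) at CT8. Without library 5, 6, 7 or 13, or with library size, its call at CT16 was lost (adjusted p up to 0.119). Grb2, a general signalling adaptor, rose at CT8 by 0.46 ± 0.13 (edgeR adjusted p = 0.00866, 0.421 with library size) and rose between dosing times in WT by 0.53 ± 0.13 (0.0432), a call lost in 9 of 22 alternatives, among them without library 1, 2, 3, 4, 5, 6, 7 or 13 (adjusted p up to 0.153). Vav1 and Syk did not pass. The median log2 change of the 4 genes was 0.32 at CT8 and 0.86 at CT16, against -0.02 and -0.01 for all tested genes.

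Markers of the cells that carry these receptors were given beside the ligands. Of 20 NK and T cell markers 3 were tested (Gzmb, Ccl5 and Il2rb), and Gzmb, a granule protease, rose in CryDKO at CT8 by 2.13 ± 0.81 (edgeR adjusted p = 0.0424). That call was lost in 8 of 21 alternatives (adjusted p up to 0.234), among them without library 1, 2, 3, 7, 9 or 10. Gzmb had at most 7 reads (0.263 CPM) in a WT library, so it entered the tested set only through CryDKO libraries. Its change and p-value are therefore a description. None of the 3 passed at CT16 by edgeR (1 had an unadjusted p under 0.05, DESeq2 called 1 and limma voom 0). The median log2 change of these 3 genes was 1.51 at CT8 and 1.46 at CT16, and does not describe the whole list. The untested markers went both ways. Klrd1 had 33 WT and 13 CryDKO reads and Eomes 18 and 2, but Gzma had 25 and 64 and Prf1 21 and 31. The 20 markers summed to 2.10 to 5.45 CPM in WT at CT8, 1.58 to 3.07 in WT at CT16, 2.87 to 11.1 in CryDKO at CT8 and 3.02 to 5.09 in CryDKO at CT16. The NK receptor genes Klra4 and Klra8 had 0 reads in every CryDKO library and 1 and 3 reads in WT, and Ncr1 had 8 WT and 7 CryDKO reads. Their part in the ligand levels was not tested.

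Of 10 macrophage markers, 2 rose in CryDKO at CT8 and 5 at CT16, with none lower. Among all 14484 tested genes 2706 rose at CT8 and 1303 at CT16, shares that apply to each list of this paragraph. C1qa and C1qb, complement subunits made by Kupffer cells, rose by 1.39 ± 0.30 (edgeR adjusted p = 0.00476) and 1.45 ± 0.33 (0.00708) at CT16. The CT8 count was 0 without library 9 and with library size. At CT16 Marco was lost without library 5, 6, 7, 13 or 14, C1qc without 6 or 13 and Csf1r without 11, and 2 of the 5 calls were kept with library size. The list's medians were 0.56 at CT8 and 1.29 at CT16. Its sum was 60.7 to 84.3 CPM in WT at CT8, 29.3 to 103 in WT at CT16, 72.9 to 176 in CryDKO at CT8 and 114 to 192 in CryDKO at CT16, with no marker at 0 in any group. Of 6 cholangiocyte markers 5 were tested. At CT8 2 rose, with Krt19, a bile duct keratin, at 2.10 ± 0.43 (0.00105) (1 without library 1, 2 or 4 and with library size), and at CT16 1 rose (Krt19, 1.26 ± 0.44, 0.0499) and 1 fell (Sox9, -1.05 ± 0.34, 0.0409). These CT16 calls were lost in 15 and 8 of 22 alternatives (adjusted p up to 0.223 and 0.101), and without 12 and 7 of the 16 libraries. The cholangiocyte sum was 25.8 to 91.9 and 46.5 to 76.8 CPM in WT and 50.5 to 147 and 47.5 to 147 CPM in CryDKO, and its medians were 0.85 and 0.58. Of the 6 hepatocyte markers 4 rose at CT8 (2 with library size) and 2 at CT16, and none fell. Alb, which encodes albumin, rose by 1.21 ± 0.23 (edgeR adjusted p = 0.000693) and 0.83 ± 0.23 (0.0186), the CT16 call being lost without library 8 or 14 (up to 0.0643). Hnf4a, a hepatocyte transcription factor, rose by 0.84 ± 0.17 (0.000955) and 0.70 ± 0.17 (0.00807). Their medians were 0.84 and 0.34. The part of these cell type markers in the members' levels was not tested.

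MHC class I genes, whose products resemble the RAE-1 proteins and are ligands of other NK receptors, moved both ways. At CT8 5 of 11 rose in CryDKO, 3 fell and 3 did not pass, and at CT16 1 fell and 10 did not pass. Among all 14484 tested genes 2706 rose and 2943 fell at CT8, and 1303 rose and 1326 fell at CT16. The gene that fell at CT16 was B2m, the class I light chain, at -0.65 ± 0.21 (edgeR adjusted p = 0.0346), a call lost without library 5, 6, 7, 11, 13 or 14 (up to 0.114). At CT8 Tap2, a peptide transporter subunit, rose by 0.90 ± 0.16 (edgeR adjusted p = 0.000291) and the heavy chain gene H2-D1 by 0.92 ± 0.18 (0.000808). Cd1d1, a lipid-presenting relative, fell at CT8 by 0.70 ± 0.17 (0.00347). H2-T23, a non-classical class I gene, rose at CT8 by 0.61 ± 0.15 (0.0034, and 0.0871 with library size). With library size 2 of the 5 calls of higher genes were kept, and 2 of the 3 of lower genes without library 2, 3, 4, 9 or 16. The list's medians were 0.39 and 0.10.

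Genes of pathways known to raise NKG2D ligands were listed too. Of 8 DNA damage and p53 genes, 1 rose in CryDKO and 3 fell at CT8, and 1 rose at CT16. Among all 14484 tested genes 2706 rose and 2943 fell at CT8, and 1303 rose at CT16. The counts of this list and of the E2F list below are descriptions beside these shares. Cdkn1a, a p53 target that arrests the cell cycle, rose by 1.38 ± 0.38 (edgeR adjusted p = 0.0111) at CT8. At CT16 it rose by 1.27 ± 0.38 (0.0333), a call lost in 9 of 22 alternatives, among them without library 5, 6, 7, 8, 12, 13 or 14 (up to 0.102). Mdm2, which directs p53 for degradation, fell by 0.79 ± 0.20 (0.00398) and the checkpoint kinase Chek2 by 1.00 ± 0.30 (0.0122) at CT8. Atm, the kinase at the head of that pathway, fell by 0.60 ± 0.22 (0.0375), a call lost without library 1, 2, 4, 9 or 10 (up to 0.142). Medians were -0.14 and 0.18. Of 15 tested E2F and proliferation genes, 2 rose at CT8 and none fell, Mcm3, a subunit of the replicative helicase, by 1.24 ± 0.34 (0.00772; 0.0588 with library size) and Mcm7 by 0.43 ± 0.14 (0.021; lost without library 9 or 10 and with library size, up to 0.647). At CT16 1 rose, Mcm7 by 0.50 ± 0.14 (0.0193; lost without library 8 or 13 and with library size, up to 0.127), and the medians were 0.52 and 0.27.

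Male-biased liver genes, which respond to growth hormone through STAT5, varied strongly among the CryDKO libraries. At CT8 5 of 13 fell in CryDKO, with Nudt7, a peroxisomal hydrolase, at -2.22 ± 0.32 (edgeR adjusted p = 0.000115) and Bcl6, a transcriptional repressor, at -1.52 ± 0.35 (0.00409). At CT16 3 fell, with Bcl6 at -1.57 ± 0.36 (0.00854) and Selenbp2 at -2.77 ± 0.64 (0.0111), and none rose at either time. Among all tested genes 20.3% fell at CT8 and 9.15% at CT16. Of the 5 calls at CT8, 2 were kept without library 4 and 3 without library 2, 9, 10 or 16. Nudt7 at CT16 (-0.93 ± 0.31, 0.045) was lost in 13 of 22 alternatives, among them without library 8 (up to 0.124), which left 2 of the 3 calls. The medians were -2.14 and -0.70. The 13 genes summed to 8570 to 14100 CPM in WT. In CryDKO the sum was 898, 7780, 7190 and 1700 CPM in libraries 9, 10, 15 and 16 and 1780, 1490, 14400 and 8780 CPM in libraries 11 to 14. Clec2h was highest in CryDKO in libraries 10 and 14, which had sums near WT, but was 0.277 and 0.4 CPM in libraries 15 and 13, which had such sums as well. The sum rests mostly on its most abundant genes, such as Mup20. Hsd3b5, a scarcer one, had 0.539, 1.69, 2.43 and 22.6 CPM in libraries 10, 14, 15 and 13, against 1.51 to 25.4 CPM in WT. Raet1d had 0.314 CPM in library 10 and 0.4 CPM in library 13, the lowest values among the CryDKO libraries. Library 11, with a sum of 1780 CPM, had 0.411 CPM, and each of these values rests on 7 reads. The part of this difference between libraries in the members' levels was not tested.

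**Figure D5:**
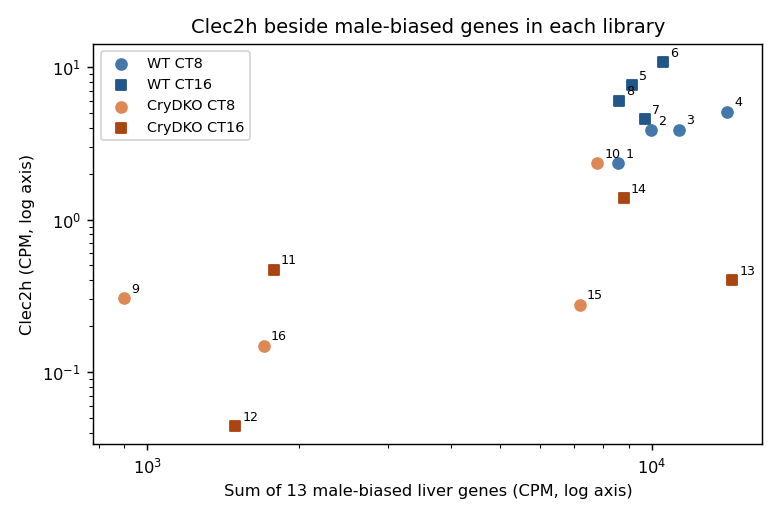
Clec2h (CPM, log axis) against the summed level of the 13 male-biased genes (CPM, log axis) for each library, numbered, with circles for CT8 and squares for CT16. CryDKO libraries 10 and 14 lie nearest the WT libraries, and libraries 13 and 15 have high sums but Clec2h at 0.4 and 0.277 CPM.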

How the data were processed

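Per the labels' protocols, poly(A) liver RNA was sequenced as 150-base paired ends. Per the submitters' processing notes, FastQC, Trimmomatic 0.35, STAR 2.5.3, HTSeq 1.99.2 and DESeq2 were used with GRCm39; the annotation, strand setting and parameters are not given in the sources used here. Raw read counts per gene symbol, as deposited by the authors, were analysed; a deposited normalized table was not used. Columns name a group and a running number. All pairs of libraries in 1 group differed beyond counting error (chi-square over its degrees of freedom, 20.2 to 136).

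Counts were tested with edgeR 4.0.16 (R 4.3.3; filterByExpr, TMM, robust quasi-likelihood fit, 4 groups in 1 model, Benjamini-Hochberg over 14484 of 40840 genes, threshold 0.05), tested on simulated data. Totals of 18083916 to 29934138 reads per library put 3 reads at 0.0927 to 0.176 CPM. Fold changes are log2, with SE from the quasi-likelihood F. DESeq2 1.42.0, limma 3.58.1 (voom), other scalings, no filter, only the compared groups and each library left out were alternatives. Correlations used log2 CPM with a prior count of 2. Promoter windows were aligned with Biopython 1.88; motifs, gene order and exon lengths came from RefSeq and GENCODE M21 tables of GRCm38.p6, used for names and order only except for the printed windows. The members, gene lists and tests were chosen with earlier results of these data known. Named were all members, tested genes of the receptor lists and up to 4 genes per other list with the lowest adjusted p. The closest genes by correlation (5 over 16 libraries, 3 over 8) and up to 3 neighbours a side were also named. Other list genes are named, after their values were seen, only where a call was lost, a list ended or untested markers went both ways. 1 gene of these lists is not reported here. Clec2 and Raet1 proteins are not analysed here.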

Additional observations from a re-analysis of the deposited data

Results flagged for a closer look

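Of 16 sets of 4 libraries checked (4 genes in 4 groups), 1 held a library far from the other 3: Clec2h in CryDKO at CT8, where library 10 had 2.34 CPM and the other libraries 0.149 to 0.305 CPM. Chance alone flags about 1 in 20 such sets. The summed male-biased genes of library 10 were 7780 CPM, and Raet1d and Clec2d had 0.314 and 67.3 CPM in the same library. The cause was not tested.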

How the results depend on the processing

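No paired analysis was possible because the columns carry a running number and not the replicate numbers of the labels. Genotype counts stayed within 1.5 times under each alternative (without 1 library, 4274 to 6112 at CT8 and 1821 to 2742 at CT16). The count between dosing times in WT was 663 without the filter, 712 with only the compared groups, 1546 with DESeq2 and 955 with limma voom, against 367. It ranged from 0 (without library 4 or 5) to 3580 (without library 8) as each library was left out. In CryDKO it was 2 without the filter and 14 with DESeq2, and 0 to 3 with a library left out. The interaction count was 0 with library size, 30 without the filter, 134 with DESeq2 and 1 with limma voom, and 0 to 568 with a library left out. The cause was not tested, except that leaving out a library leaves fewer samples.

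Between dosing times in WT, 77 of 88 alternative values of the members kept direction and side of the threshold. Between genotypes, where no threshold applies to them, 176 of 176 kept direction and 175 moved by less than the spread between libraries. Raet1e between dosing times was -0.02 with library size in WT (-0.17 to 0.45 without 1 library) and 0.17 with limma voom in CryDKO (-0.92 to 0.29), and its interaction was 0.07 with limma voom. Clec2d between dosing times in WT passed at -1.07 with library size, -0.81 without the filter, -0.84 with only the compared groups, -0.85 with DESeq2 and -0.91 with limma voom, and ranged from -1.07 to -0.71 without 1 library; in CryDKO it ranged from 0 to 0.27, and its interaction from 0.84 to 1.25. Clec2h ranged from -1.42 to 1.20 in CryDKO between dosing times, from -2.36 to 0.26 in the interaction, and from -3.92 to -1.93 between genotypes at CT8. The cause was not tested. Calls of list genes were lost in 152 of 1011 alternative values, and those of neighbours, an alternative added after seeing the data, in 2 of 131. Low reads limit the CryDKO values of Raet1d, Raet1e and Clec2h.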

Other observations

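Clec2h and Clec2d, which lie in the same gene complex, had opposite signs between dosing times in WT. Neither change passed (edgeR adjusted p = 0.364 for Clec2h and 0.0521 for Clec2d). As a share of Clec2d reads, Clec2h reads were 1.57%, 1.73%, 2.28% and 2.26% in WT libraries 1 to 4 (CT8) and 10.9%, 11.4%, 4.47% and 3.89% in libraries 5 to 8 (CT16), so that the dosing times did not overlap in this ratio although each gene alone overlapped. The ratio does not depend on scaling between libraries. In CryDKO it was 0.255% to 3.47% at CT8 and 0.0673% to 2.52% at CT16, which overlapped. The ratio was chosen after the data were seen and was not tested.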
